A study of Mus musculus with 16 samples.

Results

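The 10 inflammasome genes examined here encode 6 sensors (Nlrp3, Nlrp1a, Nlrp1b, Nlrc4, Aim2 and Mefv), the adaptor ASC (Pycard), 2 inflammatory caspases (Casp1 and Casp4) and the pore-forming protein gasdermin D (Gsdmd). They were chosen by name, as a set of inflammasome parts and with earlier results of these data known, out of 24421 gene symbols counted. All 10 had enough counts to be tested in each comparison. RNA was measured by QuantSeq 3′ sequencing, which reads the 3′ end of polyadenylated transcripts, in myeloid-derived suppressor cells (MDSCs) sorted from the spleens of 8 mice that carried subcutaneous B16.F10 melanoma, grown from 300000 implanted cells. There were 4 wild-type (WT) C57BL/6J mice and 4 Nlrp3-/- mice on a C57BL/6 background, in which an EGFP cassette with an SV40 poly(A) signal sits at the start codon of Nlrp3. From each mouse the monocytic subset (M-MDSC; CD11b-high Ly6C+Ly6G-) and the granulocytic subset (G-MDSC; CD11b-high Ly6C-Ly6G+) were sequenced, giving 16 libraries in 4 groups of 4. Unless stated otherwise, the study's mice were 6 to 12 weeks old and matched for age and sex, and tissue was taken on day 15 of tumor growth. Neither is stated for the sequenced mice one by one.

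An inflammasome forms when a cytosolic sensor meets its trigger and gathers caspase-1, directly or through the adaptor ASC. Caspase-1 then matures the cytokines IL-1β and IL-18 and cleaves gasdermin D, whose freed end opens pores in the plasma membrane. In the non-canonical route, the caspase encoded by Casp4 in the mouse, usually called caspase-11, binds bacterial lipopolysaccharide itself and cleaves gasdermin D without a separate sensor. In monocytes and neutrophils, the normal relatives of M-MDSCs and G-MDSCs, transcription of Nlrp3, Casp4 and Il1b is known to be inducible by inflammatory signals.

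Libraries held 2295967 to 6079866 counts, and 3 counts, the smallest amount treated as a level, were 0.348 to 1.17 CPM (counts scaled to a common library total, with TMM factors for composition). The Ly6C and Ly6G gates were checked against marker transcripts. Of 6 M-MDSC markers, 6 were lower in G-MDSCs, and of 7 G-MDSC markers in the files, 7 were higher there, in WT and in Nlrp3-/- mice. A first limit was M-MDSC WT replicate 2, whose summed G-MDSC markers reached 7657 CPM against 1287 to 1592 in the other 3 WT and 1728 to 2164 in the 4 Nlrp3-/- M-MDSC libraries, while G-MDSC libraries held 104159 to 158002 CPM. Another was the summed M-MDSC markers in G-MDSC libraries, at 1013 to 1217 CPM in the 4 Nlrp3-/- and 631 to 938 CPM in the 4 WT libraries, against 5108 to 8394 CPM in M-MDSCs. Of 5 of these markers tested, 1 was higher in Nlrp3-/- G-MDSCs, and of 7 G-MDSC markers tested, 1 was lower there. The 11 macrophage and dendritic cell markers summed to 979 to 1349 CPM for WT and 1484 to 2311 CPM for Nlrp3-/- M-MDSCs, while the G-MDSC sums were 768 to 1261 for WT and 1578 to 2480 for Nlrp3-/- mice. Of those tested, 6 of 9 were higher in Nlrp3-/- M-MDSCs and 7 of 8 in Nlrp3-/- G-MDSCs, and 0 of the 11 were at 0 in a whole group. Between subsets, 4 of 9 were higher in G-MDSCs of WT and 5 of 9 in those of Nlrp3-/- mice, with 1 lower in each. The 4 B cell markers summed to 68.2 to 134 CPM in M-MDSC and 171 to 288 CPM in G-MDSC libraries. Of these, 4 of 4 were higher in G-MDSCs of WT and 3 of 4 in those of Nlrp3-/- mice. Sums of T and NK cell, platelet, and eosinophil and basophil markers reached at most 123, 34.8 and 40.3 CPM in a library. The part of all these markers' cells in the differences between genotypes and subsets below was not tested. In sorted bulk RNA fewer cells of a type and less RNA per cell cannot be told apart. Of 5 melanoma markers, Mlana, Tyr and Tyrp1 were listed at 0 in all 16 libraries, and the sum of the 5 was 0 to 1.45 CPM. Of 5 erythroid markers, 4 hemoglobin genes were listed at 0 in all 16 libraries, and the other, Alas2, was at 6.94 to 103 CPM.

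Loss of Nlrp3 in the Nlrp3-/- libraries came first, since it checks the labels. Nlrp3 (chr11:59541568-59566956, plus strand, mm10) encodes the sensor that responds to potassium efflux and other danger signals. Its level was 40.6, 88.7, 53.1 and 79.7 CPM in the 4 WT M-MDSC libraries and 0.697, 1.87, 0.834 and 0.513 CPM in the 4 Nlrp3-/- M-MDSC libraries. In G-MDSCs it was 288, 251, 330 and 313 CPM in WT and 13.6, 11.3, 7.03 and 5.50 CPM in Nlrp3-/- libraries. Each Nlrp3-/- library thus lay below each WT library of its subset, and the deficient G-MDSCs lay above the deficient M-MDSCs. The log2 fold change, Nlrp3-/- over WT, was -6.06 (SE 0.39; adjusted p = 9.67e-06) in M-MDSCs and -5.06 (SE 0.26; adjusted p = 6.79e-08) in G-MDSCs by the edgeR quasi-likelihood test (p-values adjusted by Benjamini and Hochberg). Between 4 and 11 counts remained per Nlrp3-/- M-MDSC library and between 21 and 59 per Nlrp3-/- G-MDSC library. In the GENCODE annotation the start codon is at position 59543113, and 3794 or 3795 transcript bases separate it from the 3′ end of both longer transcripts, so the counted end lies downstream of the insertion.

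**Figure D1:**
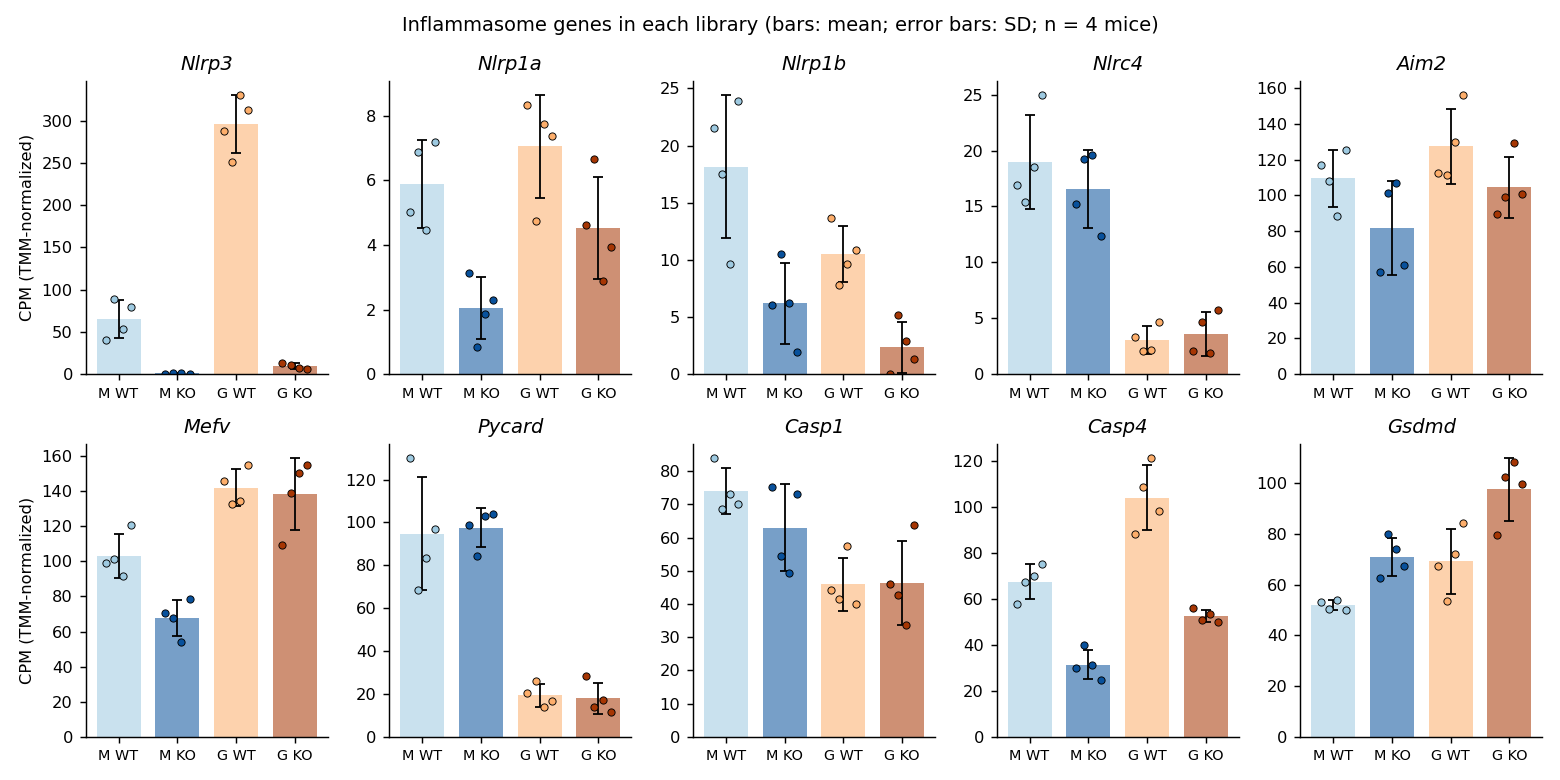
Level of each of the 10 genes in CPM with TMM factors (y axis, linear from 0, scaled per gene) in M-MDSCs and G-MDSCs of WT and Nlrp3-/- (KO) mice; points are libraries, bars the mean and error bars the SD of 4 mice. Nlrp3 was near 0 in KO M-MDSCs, Casp4 fell in KO mice within each subset, and Nlrc4 and Pycard were lower in the G-MDSC than in the M-MDSC groups.

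Beyond Nlrp3 itself, 3 members were lower in Nlrp3-/- M-MDSCs (Nlrp1a, Nlrp1b and Casp4) and 2 in Nlrp3-/- G-MDSCs (Nlrp1b and Casp4), at an adjusted p under 0.05 and a fold change above 1.5. With Nlrp3 counted, 4 of 10 members passed in M-MDSCs, where 10.6% of 9986 genes did, and 7.1% of genes were lower. In G-MDSCs 3 of 10 members passed, where 16.4% of 9273 genes did, and 11.7% were lower. No member passed as higher in either subset. Since Nlrp3 is the deleted gene, 3 of the other 9 members in M-MDSCs and 2 of the other 9 in G-MDSCs are the counts to read against those shares. The median log2 fold change of the 10 members, Nlrp3 included, was -0.49 in M-MDSCs, beside 0.07 over all genes tested, and -0.28 in G-MDSCs, beside 0.03. Among the other 9 members the middle value was that of Aim2 in M-MDSCs (-0.41) and that of Pycard in G-MDSCs (-0.19). Among all genes called, 66.9% were lower in M-MDSCs and 71.4% in G-MDSCs, but 45.4% and 51.9% were lower when counts were scaled by library size only, and 56.1% and 57.5% with offsets for GC content and length.

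Casp4 (chr9:5308828-5336783, plus strand), the caspase of the non-canonical route, fell by a like amount in each subset. It was at 57.5, 67.1, 69.8 and 75.3 CPM in WT M-MDSCs and at 29.8, 39.7, 31.1 and 24.9 CPM in Nlrp3-/- M-MDSCs. The G-MDSC values were 88.0, 108, 121 and 97.9 CPM in WT and 55.8, 50.8, 53.4 and 50.04 CPM in Nlrp3-/- libraries. The genotypes did not overlap in either subset, and the 4 Nlrp3-/- G-MDSC libraries lay within 50.04 to 55.8 CPM. The log2 fold change was -1.08 (SE 0.18; adjusted p = 0.00443) in M-MDSCs and -1.07 (SE 0.17; adjusted p = 0.000647) in G-MDSCs by edgeR, or 2.11-fold and 2.103-fold lower. The call held in 8 of 8 fits that each left out a library, in each subset. With a block for the replicate number together with GC and length offsets it was lost in M-MDSCs (log2 fold change -0.89; adjusted p = 0.0779, edgeR). Between genotypes that number joins different mice. The difference between the fall in G-MDSCs and that in M-MDSCs was 0.12 (SE 0.23; 95% confidence interval -0.37 to 0.60) on the log2 scale.

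Casp1 (chr9:5298517-5307265, plus strand) ends 1562 bases before Casp4 begins and encodes the caspase that ASC recruits. It was at 84.0, 68.6, 73.2 and 70.1 CPM in WT M-MDSCs and at 75.1, 54.3, 49.2 and 73.0 CPM in Nlrp3-/- M-MDSCs, and the genotypes overlapped. G-MDSC libraries held 44.3, 41.6, 57.6 and 40.0 CPM in WT and 45.9, 42.7, 33.5 and 63.7 CPM in Nlrp3-/- libraries, again overlapping. Its log2 fold change was -0.20 (95% confidence interval -0.60 to 0.20; adjusted p = 0.489) in M-MDSCs and -0.08 (-0.54 to 0.39; adjusted p = 0.841) in G-MDSCs by edgeR. The interval in M-MDSCs leaves out the fold that Casp4 showed, and so does that in G-MDSCs.

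Because Casp4 passed and its neighbour did not, their promoter windows are shown, as RefSeq lists them for GRCm38.p6, from 250 bases before to 50 after the start site. For Casp4, Nlrp1b and Nlrp3 2 promoters are listed each, and only that nearest the GENCODE start of the gene is covered here. Casp4 lies at chr9:5308599-5308898 and Casp1 at chr9:5298267-5298566, both on the plus strand. Nlrp1a (chr11:71144655-71144954) and Nlrp1b (chr11:71230684-71230983), both on the minus strand, are shown because both paralogs fell in M-MDSCs and Nlrp1b also in G-MDSCs. Each sequence is written 5′ to 3′, and capitals mark matches on either strand to 1 of 5 motifs, which are ISRE (GAAA, any 2 bases, GAAA), GAS (TTCNNNGAA), AP-1 (TGANTCA), PU.1 (GAGGAA) and the NF-κB consensus.
Casp4: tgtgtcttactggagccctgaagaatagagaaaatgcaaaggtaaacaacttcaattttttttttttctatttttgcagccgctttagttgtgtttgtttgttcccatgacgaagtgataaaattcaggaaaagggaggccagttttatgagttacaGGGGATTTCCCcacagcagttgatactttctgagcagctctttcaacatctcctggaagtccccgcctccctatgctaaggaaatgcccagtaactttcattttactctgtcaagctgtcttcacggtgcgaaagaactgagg
Casp1: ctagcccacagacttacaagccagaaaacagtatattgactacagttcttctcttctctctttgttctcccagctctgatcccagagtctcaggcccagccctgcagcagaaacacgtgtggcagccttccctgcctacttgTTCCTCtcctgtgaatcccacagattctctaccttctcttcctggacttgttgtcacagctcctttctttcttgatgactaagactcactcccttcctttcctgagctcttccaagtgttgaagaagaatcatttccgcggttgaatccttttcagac
Nlrp1a: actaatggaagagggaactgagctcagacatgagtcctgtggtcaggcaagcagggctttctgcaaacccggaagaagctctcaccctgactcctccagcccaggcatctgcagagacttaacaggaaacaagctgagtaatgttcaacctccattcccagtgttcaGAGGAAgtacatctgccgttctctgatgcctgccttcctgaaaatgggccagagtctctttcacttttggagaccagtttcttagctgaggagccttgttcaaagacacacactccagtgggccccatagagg
Nlrp1b: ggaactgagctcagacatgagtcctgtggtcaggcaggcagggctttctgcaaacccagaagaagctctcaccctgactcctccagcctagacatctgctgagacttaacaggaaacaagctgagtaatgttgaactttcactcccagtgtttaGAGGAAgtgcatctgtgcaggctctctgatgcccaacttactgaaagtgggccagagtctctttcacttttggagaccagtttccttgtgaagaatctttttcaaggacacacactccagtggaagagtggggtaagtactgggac
Casp4 held 3 overlapping NF-κB matches in a single stretch that starts at base 158 of the window, where the bases from 159 match on both strands. This motif was found in 4.51% of 32851 promoters of this length. Casp1 held a PU.1 match at base 143, Nlrp1a at base 168 and Nlrp1b at base 155, and 28.3% of promoters hold such a match. No ISRE (3.44% of promoters), GAS (8.3%) or AP-1 (7.81%) match was in these 4 windows, and matches of different motifs did not overlap. Among members whose windows are not shown, Nlrp3 held an NF-κB match, Aim2 and Pycard held PU.1 matches, and Nlrc4 and Mefv held none. The start site of the Aim2 window lies 69725 bases from the GENCODE start of that gene. The windows of Nlrp1a and Nlrp1b had 254 of 282 aligned bases in common (90.1%). These are letters of the reference, and no binding was measured here.

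**Figure D2:**
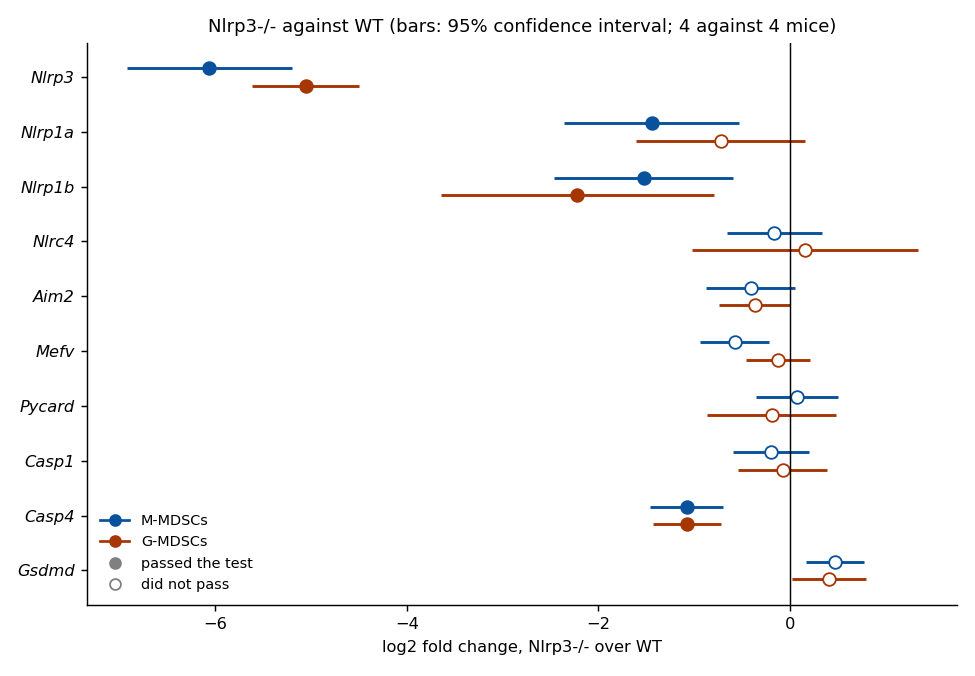
Log2 fold change, Nlrp3-/- over WT (x axis), for each gene in M-MDSCs (blue) and G-MDSCs (brown) with its 95% confidence interval; filled points passed an adjusted p under 0.05 and a 1.5-fold minimum. Nlrp3 lay at -6.06 and -5.06, Casp4 at -1.08 and -1.07, and the intervals of Nlrc4, Pycard and Casp1 spanned 0 in each subset.

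Nlrp1a (chr11:71092236-71144704) and Nlrp1b (chr11:71153102-71230733) are neighbouring paralogs on the minus strand, 11.53 megabases from Nlrp3. The protein of Nlrp1b senses proteolytic attack, in some strains that by anthrax lethal toxin. Nlrp1a was at 5.01, 6.88, 4.45 and 7.18 CPM in WT M-MDSCs and at 3.14, 0.851, 1.88 and 2.31 CPM in Nlrp3-/- M-MDSCs, with no overlap. Its log2 fold change there was -1.44 (SE 0.42; adjusted p = 0.0466, edgeR), from 5 to 49 counts per library. This call held in 1 of 8 fits without a library, that without Nlrp3-/- replicate 1, and the adjusted p over the 8 fits was 0.0177 to 0.129. It held in 4 of 9 other alternatives, and with library size only it was lost (log2 fold change -1.33; adjusted p = 0.0541, edgeR). In G-MDSCs Nlrp1a was at 8.33, 4.73, 7.74 and 7.38 CPM in WT and 4.61, 6.66, 2.90 and 3.93 CPM in Nlrp3-/- libraries, a log2 fold change of -0.72 that did not pass (adjusted p = 0.243, edgeR).

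Nlrp1b was at 21.5, 17.5, 9.62 and 23.9 CPM in WT M-MDSCs and at 6.04, 10.6, 6.25 and 1.92 CPM in Nlrp3-/- M-MDSCs, so that WT replicate 3 fell inside the range of the deficient group. In G-MDSCs it was at 13.7, 7.77, 9.68 and 10.9 CPM in WT and at 0, 5.18, 2.90 and 1.31 CPM in Nlrp3-/- libraries, which did not overlap. The library at 0, Nlrp3-/- replicate 1, allows a level of up to 0.692 CPM. The log2 fold change was -1.53 (SE 0.43; adjusted p = 0.0415) in M-MDSCs and -2.22 (SE 0.66; adjusted p = 0.0328) in G-MDSCs by edgeR. In M-MDSCs the call was lost without WT replicate 1, 2 or 4 or Nlrp3-/- replicate 3 or 4 (adjusted p over the 8 fits 0.0225 to 0.119), and in G-MDSCs without WT replicate 1, 3 or 4 or Nlrp3-/- replicate 3 or 4 (0.0191 to 0.0900). Offsets for GC content and length also ended it in both subsets, with an adjusted p of 0.0631 and 0.0583 by edgeR.

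The longest transcripts of Nlrp1a and Nlrp1b matched at 86.6% of 3637 aligned bases and shared a run of 102 bases, while their last 500 bases shared no run beyond 21. Reads in shared stretches could have been given to either gene, so the split between them is uncertain. The other genes on chromosome 11 between Nlrp3 and Nlrp1b were counted too, a region looked at after these values were seen. Of 123 tested there in M-MDSCs, 3 were lower and 6 higher, and of 104 in G-MDSCs, 7 were lower and 6 higher. That is 2.44% and 6.73% lower, beside 7.1% and 11.7% over all genes. Of all genes, 351 of 9986 were higher in M-MDSCs and 436 of 9273 in G-MDSCs. In either direction 7.32% and 12.5% of the region passed, beside 10.6% and 16.4% of all genes. The median log2 fold change of the region was 0.23 and 0.21, beside 0.07 and 0.03. Whether sequence near the targeted locus has a part in the falls of Nlrp1a and Nlrp1b was not tested. The WT mice were bought and the Nlrp3-/- line came from another laboratory, so genotype and origin cannot be told apart.

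Gsdmd (chr15:75862327-75867408, plus strand), whose product forms the pore, had a positive log2 fold change in each subset. It was at 53.1, 50.5, 54.1 and 49.9 CPM in WT M-MDSCs and at 62.5, 79.8, 74.0 and 67.5 CPM in Nlrp3-/- M-MDSCs, with no overlap. Among G-MDSCs the level was 67.3, 53.4, 72.1 and 84.3 CPM in WT and 79.6, 103, 108 and 99.6 CPM in Nlrp3-/- libraries, where the groups overlapped. Its log2 fold change was 0.47 (SE 0.14; adjusted p = 0.0473) in M-MDSCs, under the fold change minimum, and 0.41 (SE 0.18; adjusted p = 0.135) in G-MDSCs by edgeR. It therefore passed in neither subset.

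Mefv (chr16:3707218-3718097, minus strand) encodes pyrin, a sensor of bacterial toxin activity. It was at 98.9, 101, 91.4 and 121 CPM in WT M-MDSCs and at 70.4, 67.9, 53.8 and 78.2 CPM in Nlrp3-/- M-MDSCs, which did not overlap. Its log2 fold change of -0.58 (SE 0.17; adjusted p = 0.0450, edgeR), or 1.49-fold, was under the 1.5-fold minimum, and it passed with DESeq2 (-0.60; adjusted p = 0.0129). In G-MDSCs it was at 146, 132, 135 and 155 CPM in WT and 109, 139, 150 and 155 CPM in Nlrp3-/- libraries, with a log2 fold change of -0.12 (95% confidence interval -0.46 to 0.21; adjusted p = 0.628, edgeR). The difference between the subsets in this fold was 0.57 (SE 0.22), with an unadjusted p of 0.0181 and an adjusted p of 0.992 by edgeR.

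Aim2, Nlrc4 and Pycard did not pass between genotypes. Aim2 (chr1:173350879-173466040, plus strand), a sensor of cytosolic DNA whose locus overlaps Cadm3 on the other strand, was at 88.3 to 126 CPM in WT and 56.9 to 107 CPM in Nlrp3-/- M-MDSCs. The log2 fold change was -0.41 (95% confidence interval -0.88 to 0.06). In G-MDSCs it was at 111 to 156 CPM in WT and 89.7 to 129 CPM in Nlrp3-/- libraries, a log2 fold change of -0.37 (-0.74 to 0.00). Nlrc4 (chr17:74425438-74459142, minus strand), which signals for the NAIP sensors of flagellin and secretion systems, had log2 fold changes of -0.16 (-0.66 to 0.34) and 0.16 (-1.02 to 1.34). Pycard (chr7:127989708-127993867, minus strand) had log2 fold changes of 0.07 (-0.35 to 0.50) and -0.19 (-0.86 to 0.48). The wide interval of Nlrc4 in G-MDSCs goes with 6 to 22 counts per library there.

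Counted by overlap, 5 of 10 members had genotypes that did not overlap in M-MDSCs (Nlrp3, Nlrp1a, Mefv, Casp4 and Gsdmd), where 19.3% of genes tested did so. In G-MDSCs 3 of 10 did not overlap (Nlrp3, Nlrp1b and Casp4), where the share was 24.4%. Nlrp3 is the deleted gene, so its place in both counts was set by the genotype. The counts without it are those to read against these shares. A test of whether the genotype effect differed between the subsets called 0 of the 10 members, and 3 of 10696 genes (0.028%), at an adjusted p under 0.05 by edgeR. At an unadjusted p under 0.05 there were 2 members, Mefv and Nlrp3, and DESeq2 called 0 as well. For Nlrp3 the difference was 1.11 (SE 0.48; unadjusted p = 0.0311; adjusted p = 0.992, edgeR), and without M-MDSC WT replicate 2, the library with G-MDSC markers, it was 0.75.

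The adaptor gene Pycard and Nlrc4 were lower in G-MDSCs than in M-MDSCs of both genotypes. Pycard was at 130, 68.3, 83.3 and 96.8 CPM in WT M-MDSCs and at 20.7, 26.0, 13.8 and 16.7 CPM in WT G-MDSCs. In Nlrp3-/- mice it was at 98.8, 84.3, 103 and 104 CPM in M-MDSCs and at 28.4, 14.1, 17.4 and 11.8 CPM in G-MDSCs. No G-MDSC library reached the lowest M-MDSC library. The log2 fold change, G-MDSC over M-MDSC, was -2.29 (SE 0.25; adjusted p = 1.16e-05) in WT and -2.55 (SE 0.25; adjusted p = 1.36e-06) in Nlrp3-/- mice by edgeR. Nlrc4 was at 16.9, 15.4, 18.5 and 25.0 CPM in WT M-MDSCs and at 3.33, 2.03, 2.18 and 4.66 CPM in WT G-MDSCs, a log2 fold change of -2.64 (SE 0.33; adjusted p = 2.86e-05, edgeR). In Nlrp3-/- mice it was at 15.2, 19.2, 19.6 and 12.3 CPM in M-MDSCs and at 2.08, 4.68, 1.86 and 5.76 CPM in G-MDSCs, a log2 fold change of -2.32 (SE 0.40; adjusted p = 0.000213, edgeR). As with Pycard, no G-MDSC library of Nlrc4 reached its lowest M-MDSC library.

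Nlrp3 itself went the other way. In WT mice it was 295.6 ± 34.2 CPM (SD, n = 4) in G-MDSCs and 65.5 ± 22.5 CPM (SD, n = 4) in M-MDSCs, a log2 fold change of 2.18 (SE 0.24; adjusted p = 1.06e-05, edgeR). Without M-MDSC WT replicate 2 it was 2.31. Among the residual counts of Nlrp3-/- mice the same contrast was 3.16 (SE 0.55; adjusted p = 0.000251, edgeR). Across the 4 groups the order was G-MDSC WT, M-MDSC WT, G-MDSC Nlrp3-/-, M-MDSC Nlrp3-/-, and no neighbours in that order overlapped.

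In all, 6 of 10 members passed between the subsets in WT mice, where 53.3% of 9739 genes did, with Nlrp3 and Casp4 higher in G-MDSCs and Nlrp1b, Nlrc4, Pycard and Casp1 lower. In Nlrp3-/- mice 5 of 10 passed, where 51% of 10071 genes did, with Nlrp3, Mefv and Casp4 higher and Nlrc4 and Pycard lower, so these shares were near those of all genes. The 2 subsets share a mouse at each replicate number, which these fits left out. With the mouse as a block Nlrp1b also passed as lower in Nlrp3-/- G-MDSCs (log2 fold change -1.71; adjusted p = 0.0456, edgeR). With library size only, the median log2 fold change of all genes moved from -0.05 to -0.79 in WT and from -0.12 to -0.83 in Nlrp3-/- mice.

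Casp4 followed the order of Nlrp3 over the 4 groups, G-MDSC WT, M-MDSC WT, G-MDSC Nlrp3-/- and M-MDSC Nlrp3-/-, with no neighbours overlapping, at means of 103.9 ± 14.2, 67.4 ± 7.43, 52.5 ± 2.64 and 31.4 ± 6.15 CPM (SD, n = 4 each). Its log2 fold change, G-MDSC over M-MDSC, was 0.63 in WT (SE 0.16; adjusted p = 0.00504) and 0.63 in Nlrp3-/- mice (SE 0.19; adjusted p = 0.0116) by edgeR, but the sign turned with library size only (-0.12 and -0.08). In WT mice the call was lost without G-MDSC replicate 3 or M-MDSC replicate 1 or 2, when the fold change dropped under the minimum (log2 fold change 0.52 to 0.71 over 8 fits), and with no filter on low counts (0.57), and in Nlrp3-/- mice without M-MDSC replicate 4 (0.54). Mefv had a log2 fold change of 0.46 in WT (SE 0.15; adjusted p = 0.0168, under the fold minimum) and 0.91 in Nlrp3-/- mice (SE 0.18; adjusted p = 0.000583) by edgeR, and with library size only it was -0.28 and 0.19. The genotypes of Mefv in G-MDSCs overlapped each other, and M-MDSC Nlrp3-/- libraries were the lowest of the 4 groups.

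Casp1 was lower in G-MDSCs of WT mice, at a log2 fold change of -0.68 (SE 0.17; adjusted p = 0.00404, edgeR), and was -0.57 in Nlrp3-/- mice (SE 0.23; adjusted p = 0.0498), under the fold minimum. Nlrp1b was lower in WT G-MDSCs at -0.78 (SE 0.31; adjusted p = 0.0477, edgeR), a call that was lost in 6 of 8 fits without a library, those without M-MDSC replicate 1, 2 or 4 or G-MDSC replicate 2, 3 or 4 (adjusted p over the 8 fits 0.00775 to 0.113). Gsdmd, Aim2 and Nlrp1a did not pass in either genotype, with log2 fold changes of 0.42 and 0.35 for Gsdmd, 0.22 and 0.26 for Aim2, and 0.27 and 0.99 for Nlrp1a in WT and Nlrp3-/- mice. With library size only, Gsdmd and Aim2 turned negative in each genotype and Nlrp1a in WT mice. Over the 4 groups the neighbouring means of Nlrp1a, Nlrp1b, Aim2, Casp1 and Gsdmd all overlapped in range.

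**Figure D3:**
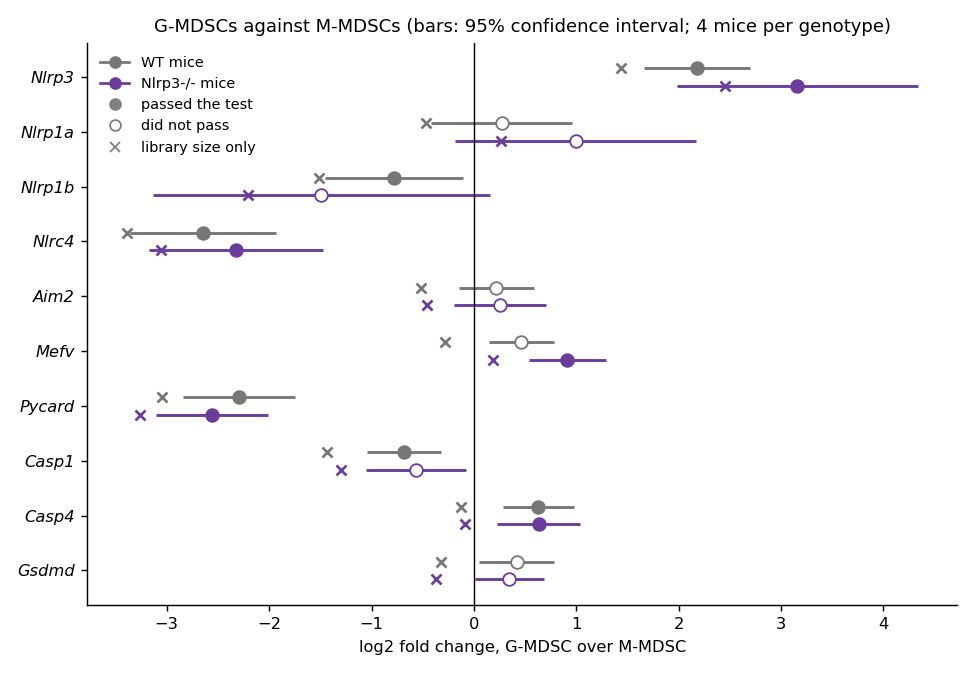
Log2 fold change, G-MDSC over M-MDSC (x axis), for each gene in WT (grey) and Nlrp3-/- mice (purple) with its 95% confidence interval; filled points passed and crosses give the value with library size only. Pycard (-2.29, -2.55) and Nlrc4 (-2.64, -2.32) were lower and Nlrp3 (2.18, 3.16) higher under both scalings, while Casp4, Gsdmd and Aim2 changed sign in each genotype and Mefv and Nlrp1a in WT mice.

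The genes whose profile over the 16 libraries was most like each member were found by the root mean square difference of log2 CPM, centred per gene, among 10695 other genes. For Casp4 they were Ash1l (0.16) and Matr3 (0.18), against a root mean square of 0.64 for Casp4 itself. For Pycard they were Gas7 (0.28) and Ly6c2 (0.33), against 1.24, and for Nlrc4 they were Ypel2 and 2310022A10Rik (both 0.36), against 1.26. Ly6c2 encodes the Ly6C antigen used to gate M-MDSCs. For Gsdmd they were Arf6 (0.14) and Ppp6r3 (0.15), against 0.36, and for Mefv Acbd3 and Rbl2 (both 0.18), against 0.46. For Nlrp3 the nearest genes, Rybp (1.49) and Snora81 (1.52), were far from its own 2.97. Nlrp1a was nearest to Wrn (0.31) and Edrf1 (0.37), Nlrp1b to Ipo7 (0.65) and Ddx10 (0.72), Aim2 to Zmynd8 and Rbbp6 (both 0.21), and Casp1 to Ywhae (0.19) and Pdcd5 (0.22). The libraries and their scaling factors are shared by all genes in these distances.

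The rest of the pathway was followed in 5 lists of 81 genes in all. Of the 65 tested in M-MDSCs, 4 were higher and 2 lower in Nlrp3-/- mice, with a median log2 fold change of -0.08. Of the 61 tested in G-MDSCs, 3 were higher and 7 lower, with a median of -0.09. The adjusted p of the genes named below was 0.0205 to 0.0440 in M-MDSCs and 0.000672 to 0.0328 in G-MDSCs by edgeR. These shares were near or below the 10.6% and 16.4% of all genes.

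Among priming factors and regulators of NLRP3 (22 genes), Rela, which encodes the NF-κB subunit p65, was higher in Nlrp3-/- M-MDSCs (192 ± 47.4 against 114 ± 11.1 CPM, SD, n = 4; log2 fold change 0.77, SE 0.18; libraries overlapped) and in Nlrp3-/- G-MDSCs (362 ± 26.8 against 194 ± 55.6 CPM; 0.82, SE 0.18). Irf1, an interferon-induced transcription factor, was higher in M-MDSCs (log2 fold change 0.70, SE 0.18). Irf2, known as an activator of Gsdmd transcription, was lower in G-MDSCs (-0.69, SE 0.15), as was Gbp7, which encodes a guanylate-binding protein (-0.68, SE 0.16). Nek7, the kinase that bridges NLRP3 subunits, was the remaining lower gene in G-MDSCs (-0.99, SE 0.30; libraries overlapped; named after its values were seen).

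Among the other sensors (25 genes), 0 of 18 tested passed in M-MDSCs. In G-MDSCs Tmem173, which encodes the DNA-sensing adaptor STING, was higher (29.3 ± 5.02 against 15.5 ± 4.12 CPM, SD, n = 4; log2 fold change 0.84, SE 0.25), and Mndal, an interferon-inducible AIM2-like gene, was lower (-0.78, SE 0.19). Tmem173 was at 103 ± 22.6 CPM in WT M-MDSCs, whose markers were higher in Nlrp3-/- than in WT G-MDSC libraries, as given above, and their part in its rise was not tested. Among other caspases and their adaptors (13 genes), Casp9, the initiator caspase of mitochondrial apoptosis, was higher in M-MDSCs (0.67, SE 0.19) and G-MDSCs (1.12, SE 0.24). Xiap, an inhibitor of apoptosis protein, was lower in M-MDSCs (-0.76, SE 0.18) and G-MDSCs (-1.08, SE 0.21), and Birc2, a related inhibitor, in G-MDSCs (-1.23, SE 0.19). Within 14 genes of other gasdermins, membrane rupture and repair, Chmp3, of the ESCRT machinery that reseals membranes, was lower in M-MDSCs (-0.63, SE 0.15) and G-MDSCs (-0.91, SE 0.17). None of 7 necroptosis genes tested in M-MDSCs or 6 in G-MDSCs passed.

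These calls differed in stability. Each of the 6 calls in M-MDSCs was lost without at least 1 library, and with a replicate block 0 of the 81 genes passed there. Between genotypes the replicate number joins different mice, so that block cannot by itself show that a call is unstable. In G-MDSCs Irf2, Rela, Birc2, Xiap, Casp9 and Chmp3 passed in 8 of 8 fits without a library. With GC and length offsets Irf2, Rela, Xiap, Gbp7, Nek7, Mndal and Tmem173 no longer passed in G-MDSCs, and the log2 fold change of Xiap was then -0.45.

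**Figure D4:**
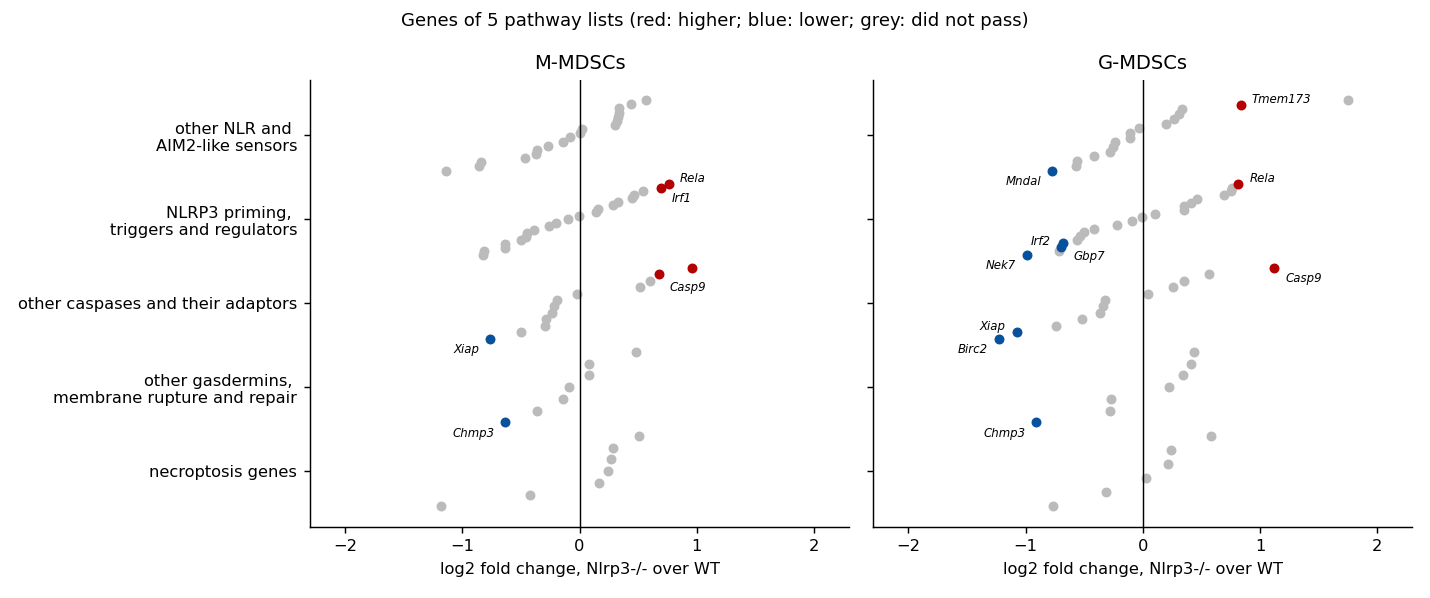
Log2 fold change, Nlrp3-/- over WT (x axis), of each tested gene of 5 pathway lists (rows, 1 point a gene, ordered by value within its list) in M-MDSCs (65 genes) and G-MDSCs (61 genes). Red points passed as higher (4 and 3), blue as lower (2 and 7), and grey points did not pass.

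The cytokine substrates of caspase-1 were read last. Il1b was at 12748 ± 3600 CPM in WT and 21906 ± 3830 CPM in Nlrp3-/- G-MDSCs (SD, n = 4 each), and the genotypes did not overlap. Its log2 fold change was 0.70 (SE 0.22; adjusted p = 0.0378, edgeR), a call that was lost without WT replicate 1, 2 or 4 or Nlrp3-/- replicate 2, 3 or 4 (adjusted p over the 8 fits 0.00791 to 0.1101). In M-MDSCs it was at 266 ± 107 CPM in WT and 192 ± 43.8 CPM in Nlrp3-/- mice, which did not pass (log2 fold change -0.45, SE 0.26; adjusted p = 0.274, edgeR). The difference between these fold changes was 1.25 (SE 0.37), with an unadjusted p of 0.00324 and an adjusted p of 0.844 by edgeR, and without M-MDSC WT replicate 2 it was 0.76. Il18, encoding the other cytokine, was higher in Nlrp3-/- G-MDSCs (30.8 ± 7.57 against 14.7 ± 4.74 CPM; log2 fold change 0.98, SE 0.28; adjusted p = 0.0265, edgeR), and the call was lost without WT replicate 3 or 4 or Nlrp3-/- replicate 2, 3 or 4 (0.0151 to 0.0762). The M-MDSC markers moved the same way in these G-MDSC libraries (1013 to 1217 against 631 to 938 CPM), and their part in the rise of Il18 was not tested. In M-MDSCs it was at 42.8 ± 9.97 CPM in Nlrp3-/- and 29.1 ± 7.71 CPM in WT mice and did not pass (adjusted p = 0.112, edgeR). Il1a lay near the floor, at 0 to 3.09 CPM over the 16 libraries. The level of Il1b was above that in M-MDSCs by a log2 fold change of 5.58 in WT and 6.72 in Nlrp3-/- mice, where Pycard, as given above, was lower.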

How the data were processed

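The counts were deposited by the authors as whole reads per gene symbol for 16 libraries (QuantSeq 3′ FWD). Per the paper's methods and the submitters' processing notes, reads were aligned to mm10 with HISAT2 2.1.0, counted by strand with htseq-count and tested with edgeR 3.14.0. Libraries had 15 or 17 PCR cycles, and which had which is not given in the sources used here.

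Counts were tested here with edgeR 4.0.16 in R 4.3.3 (quasi-likelihood, filterByExpr, TMM, Benjamini-Hochberg) on the 8 libraries of each comparison, and on all 16 for the difference between subsets. A call needed an adjusted p under 0.05 and, except for that difference, a fold above 1.5. SE is the log2 fold change over the root of F. Confidence intervals (95%) use edgeR's degrees of freedom. Levels are CPM with TMM factors over all 16 libraries, and 3 counts was the floor, covering counting error only. Each library came from 1 mouse. Of 24 pairs of libraries within groups, 0 were identical. Same-numbered M-MDSC and G-MDSC libraries came from the same mouse, and their deviations correlated at 0.0971 to 0.397 in WT and 0.00821 to 0.382 in Nlrp3-/- mice. Of 8 libraries per genotype, 7 in WT and 6 in Nlrp3-/- mice were nearest to the library of their own mouse. The main fits between subsets, and of the difference between them, left the mouse out, so their p-values ignore this pairing. Scripts were tested on simulated data.

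The members and lists were chosen with earlier results of these data known. Named were the 10 members, Il1b, Il18, Il1a, up to 2 called genes per list, direction and genotype comparison by smallest p, and the 2 genes most alike to each member. One gene that this rule names is not reported here. Alternatives were DESeq2 1.42.0, its size factors in edgeR, library size only, no filter, no fold minimum, all 16 libraries, a replicate block, GC and length offsets, raw-total CPM and leaving out each library. Gene positions are from GENCODE M21 (GRCm38), which matched 98.5% of symbols, and promoters from RefSeq (GRCm38.p6; 9 of 10 members). Plots used matplotlib 3.10.9.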

Additional observations from a re-analysis of the deposited data

How the results depend on the processing

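Of the members called between genotypes, Nlrp3 and Casp4 kept their falls in each subset with each library left out. The count of members called in M-MDSCs (4) was 2 with a replicate block, 1 with the block and GC and length offsets, and 2 to 5 without each library. Over all genes, calls in M-MDSCs (1060) were 425 with the block, 668 with the offsets, 48 with both and 450 to 1783 without each library, and in G-MDSCs (1522) 985, 965, 396 and 1104 to 1544. The replicate number joins different mice between genotypes (correlations -0.452 to 0.0177 in M-MDSCs and -0.263 to -0.0438 in G-MDSCs, 0 of 8 libraries nearest to their own number in each). The mouse block between subsets added Nlrp1b in Nlrp3-/- mice (-1.71), as given above. Signs turned, as log2 fold changes, as follows. With offsets, and with offsets and block, Nlrc4 in M-MDSCs was 0.0895 and 0.0869, and in G-MDSCs Pycard was 0.0600 and 0.0349 and Casp1 0.12 and 0.0877. Casp1 in G-MDSCs was also 0.0397 with library size only and 0.0109 in a model of all 16 libraries. With library size only, G-MDSC over M-MDSC in WT was -0.46 for Nlrp1a, -0.52 for Aim2, -0.28 for Mefv, -0.12 for Casp4 and -0.33 for Gsdmd, and in Nlrp3-/- mice -0.46 for Aim2, -0.0841 for Casp4 and -0.37 for Gsdmd, where the scaling itself moved the median of all genes. The subset difference of Gsdmd was -0.0304 with DESeq2 size factors, -0.0474 with library size only and -0.0285 with DESeq2. Without each library, Pycard spanned -0.0495 to 0.29 in M-MDSCs and -0.49 to 0.00012 in G-MDSCs, Nlrc4 -0.15 to 0.43 and Casp1 -0.25 to 0.0741 in G-MDSCs, and the subset difference -0.16 to 0.30 for Aim2, -0.45 to 0.0347 for Pycard, -0.0721 to 0.25 for Casp4 and -0.18 to 0.15 for Gsdmd. Apart from library size only, the cause was not tested. On raw-total CPM, 26 of 40 group means moved by more than 1 SD. All members passed the filter, so a check of members below it gave no result. Depth limits Nlrp1a, Nlrp1b and Nlrc4, which had as few as 5, 0 and 6 counts in a library.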
